A study of Mus musculus with 8 samples.

Results

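The miR-106b cluster is a run of 3 hairpins, mir-106b, mir-93 and mir-25, that are transcribed together within an intron of Mcm7, and its 6 mature microRNAs (miRNAs) were taken by name from a table of 1978 mature miRNAs. Small RNA had been sequenced from CD8+ T cells, the killer cells among lymphocytes, enriched with CD8a magnetic beads from spleens of C57BL/6 mice, an inbred strain. Neonatal mice were 5 to 7 days old and adult mice 12 weeks old, with 4 libraries per age and no other treatment or genotype in the labels. Bead enrichment can leave other spleen cells in the sample. Nothing in the labels ties a library to its own animal or pool of animals, so the spread behind every p-value is that between these libraries and could be technical.

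A miRNA is cut from one arm of a hairpin, the 5p or the 3p arm, and represses messenger RNAs that match its bases 2 to 8, the seed. The host gene Mcm7 encodes a subunit of the helicase that opens DNA at replication origins, and its transcription is known to be driven by E2F factors in dividing cells. In human tumour cells miR-106b-5p and miR-93-5p are known to repress the cell cycle inhibitor CDKN1A, and miR-25-3p the pro-apoptotic protein BIM. The cluster is a paralog of the miR-106a to miR-363 cluster and of the miR-17 to miR-92a cluster. The miR-17 to miR-92a cluster is known to promote lymphocyte growth and survival.

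All 3 hairpins lie in intron 13 of the principal Mcm7 transcript in GENCODE, on the minus strand of chromosome 5 (mm10), within 498 bases. Gaps of 126 bases separate mir-106b from mir-93, and 118 bases separate mir-93 from mir-25. A retained-intron transcript of Mcm7 has an exon that overlaps mir-93 and mir-25. The hairpins are shown to place both arms of each, in capitals, and were taken from RefSeq (GRCm38.p6), which held all 6 mature members:
mir-106b, chr5:138165737-138165818: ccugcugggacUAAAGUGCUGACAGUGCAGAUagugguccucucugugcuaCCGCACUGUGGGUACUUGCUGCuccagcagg
mir-93, chr5:138165523-138165610: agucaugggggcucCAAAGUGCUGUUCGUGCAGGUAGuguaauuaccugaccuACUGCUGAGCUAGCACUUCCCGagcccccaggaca
mir-25, chr5:138165321-138165404: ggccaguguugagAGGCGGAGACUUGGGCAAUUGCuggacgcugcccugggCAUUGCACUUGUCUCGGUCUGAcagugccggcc

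The mature miRNAs follow under their mouse (mmu) names, with the seed in capitals, together with 3 miRNAs of the miR-17 to miR-92a cluster on chromosome 14 that carry the same seeds:
mmu-miR-106b-5p: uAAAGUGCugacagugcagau
mmu-miR-93-5p: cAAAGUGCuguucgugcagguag
mmu-miR-17-5p: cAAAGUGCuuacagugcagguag
mmu-miR-20a-5p: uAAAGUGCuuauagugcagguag
mmu-miR-25-3p: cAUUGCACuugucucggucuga
mmu-miR-92a-3p: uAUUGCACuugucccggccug
mmu-miR-106b-3p: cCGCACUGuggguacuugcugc
mmu-miR-93-3p: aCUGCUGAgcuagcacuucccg
mmu-miR-25-5p: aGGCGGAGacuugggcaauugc

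The seed AAAGUGC was shared by miR-106b-5p and miR-93-5p, and the seed AUUGCAC by miR-25-3p and miR-92a-3p. The remaining 3 arms, miR-106b-3p, miR-93-3p and miR-25-5p, had seeds found in no other miRNA of the table with a RefSeq sequence. Counted from the 5′ end, miR-93-5p had the same base as miR-17-5p at 19 of 23 positions, and miR-25-3p the same as miR-92a-3p at 18 of 21. Each member came from 1 hairpin. Its deposited counts were whole numbers in all 8 libraries for 4 members, and fractions, as when a read is shared between places, appeared in 3 libraries for miR-106b-5p and in 4 for miR-25-3p. GC content of the mature sequence was 42.9% for miR-106b-5p, 50.0% for miR-25-3p, 52.2% for miR-93-5p, 59.1% for miR-93-3p and miR-25-5p, and 63.6% for miR-106b-3p.

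Neonatal libraries held 1454422 to 2416060 counts, adult ones 1281033 to 2606637, and 1 count equals 0.384 to 0.781 CPM, the count scaled to a fixed library size. Levels are CPM after TMM scaling, which brings libraries to a common level by a trimmed mean of ratios, with factors of 1.16 to 1.3 for neonatal libraries, against 0.788 to 0.812 for adult ones. Lymphocyte miRNAs, such as miR-150-5p and the miR-142a arms, none of them specific to CD8+ cells, summed to 73300 to 76100 CPM in neonatal and 145000 to 211000 CPM in adult libraries, with 5 of 6 lower in neonatal ones on this scale. The 5 erythroid miRNAs summed to 308 to 774 CPM in neonatal libraries, against 120 to 251 CPM in adult ones (3 of 3 tested higher), and the 2 liver miRNAs to 745 to 1590 CPM in neonatal libraries, against 245 to 390 CPM in adult ones (1 of 1 tested higher, miR-122-3p at 0 in all libraries). The 2 endothelial miRNAs held 125 to 160 CPM in neonatal libraries, against 46.6 to 76.9 CPM in adult ones (2 of 2 higher), and the 4 stromal ones 113 to 165 CPM in neonatal libraries, against 34.2 to 82.5 CPM in adult ones (3 of 3 tested higher). The 5 epithelial miRNAs summed to 1820 to 2110 CPM in neonatal and 2620 to 2890 CPM in adult libraries (2 of 4 tested lower). The defining myeloid miRNAs, the miR-223 arms, were near 0 at 3.48 to 8.53 CPM in neonatal libraries, against 2.85 to 9.09 CPM in adult ones. The part of other cells in the results below was not tested, and in such bulk samples fewer cells of a type and less RNA per cell cannot be told apart.

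**Figure D1:**
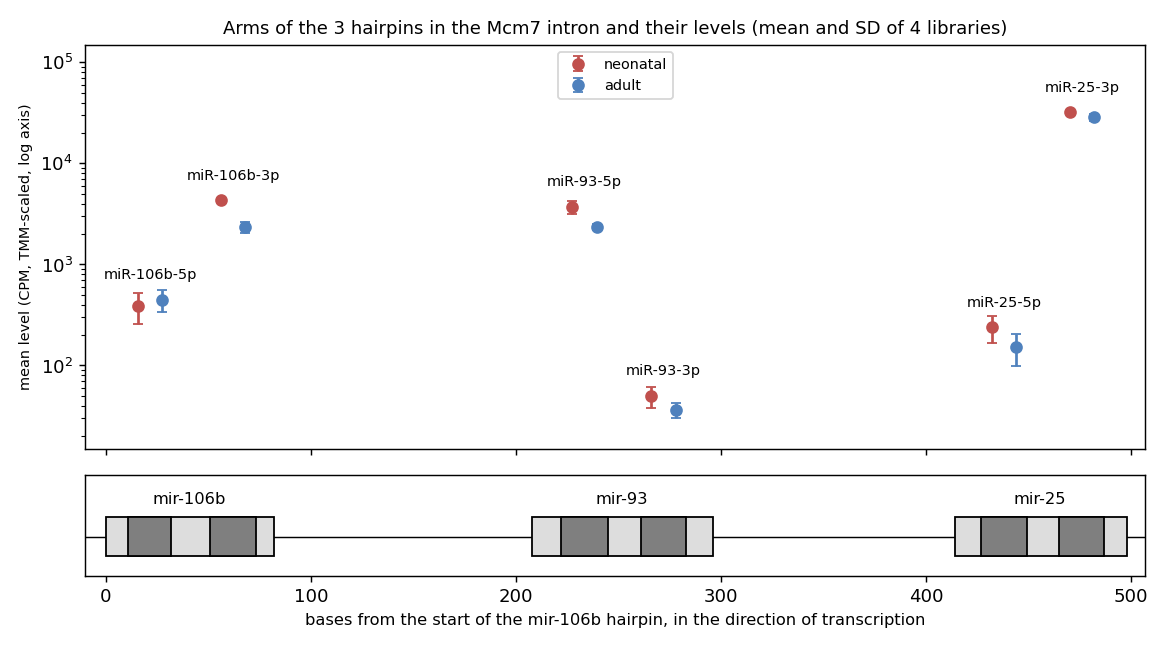
Upper panel: mean level of each arm in neonatal and adult libraries (CPM after TMM scaling, log axis; bars are SD of 4 libraries). Lower panel: the 3 hairpins (light) with their mature arms (dark), drawn to scale in bases from the start of mir-106b in the direction of transcription; miR-25-3p stood highest, with a mean of 32000 CPM in neonatal libraries, against 28650 CPM in adult ones.

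Of the 6 members, miR-106b-3p and miR-93-5p were higher in neonatal libraries. The other members, miR-25-3p, miR-106b-5p, miR-25-5p and miR-93-3p, did not pass the test on the TMM scale. All 6 had enough counts to be tested. Across all 375 miRNAs tested, 63.2% passed edgeR's quasi-likelihood test (Benjamini-Hochberg adjusted p under 0.05), with 29.1% of those tested higher and 34.1% lower in neonatal libraries, so a count of 2 of 6 higher is close to the background. No member was lower, also at an unadjusted p under 0.05 (0 by edgeR, 0 by DESeq2 and 0 by limma-voom). At that looser threshold 3 were higher by edgeR, 5 by DESeq2 and 3 by limma-voom. The share of all miRNAs at the unadjusted threshold was not counted. By edgeR it is at least the 29.1% higher and 34.1% lower given above, since adjustment only raises a p-value. The unadjusted counts are therefore not read as a result about the members. The median log2 fold change, neonatal over adult, was 0.55 over the 6 members and -0.05 over all miRNAs tested. The count of members depended on scaling: 5 were higher with median-ratio scaling (RLE) in edgeR, where 32.8% of all miRNAs were higher, with DESeq2 (33.6%) and with library totals (49.6%). miR-106b-5p was called under none of the 3. Scaling to library totals shifted log2 fold changes upward by 0.625 on average, and RLE by 0.12. With an offset for GC content, the share of G and C bases, 2 members were higher (28.8% of all miRNAs), and with a block for the replicate number 3 (33.3%).

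miR-106b-3p, the 3p arm of the first hairpin, which is often treated as the passenger strand, had the largest log2 fold change of the 6. Its level was 4382, 4324, 4366 and 4117 CPM in neonatal libraries 1 to 4, against 2632, 2008, 2528 and 2214 CPM in adult libraries 1 to 4. All 4 neonatal libraries lay far above all 4 adult ones, and the neonatal spread was small (coefficient of variation of 2.86%, the 4th smallest of 375 miRNAs, against a median of 20.3%). The log2 fold change was 0.87 ± 0.13 (SE; edgeR's adjusted p = 0.000107, n = 4 per group). The GC offset lowered it to 0.49, still past the threshold (edgeR's adjusted p = 0.00196), and library totals raised it to 1.51.

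miR-93-5p, the main product of the middle hairpin, rose as well. It stood at 3155, 4021, 3298 and 4339 CPM in neonatal libraries 1 to 4, against 2136, 2406, 2308 and 2527 CPM in adult libraries 1 to 4. The groups did not overlap, and neonatal libraries 2 and 4 were higher than neonatal libraries 1 and 3. The log2 fold change was 0.66 ± 0.15 (SE; edgeR's adjusted p = 0.00157), and 1.29 with library totals. The GC offset lowered it to 0.46, still past the threshold (edgeR's adjusted p = 0.0187). No overlap between the groups was seen for 3 members, all higher in neonatal libraries, against 57.3% of all miRNAs tested in either direction, 26.4% higher and 30.9% lower.

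The third member without overlap was miR-25-3p, the guide strand of the last hairpin and by far the most counted member. It held 30970, 32050, 32090 and 32900 CPM in neonatal libraries 1 to 4, against 30850, 25550, 30580 and 27620 CPM in adult libraries 1 to 4. The lowest neonatal value lay just above the highest adult one. Its log2 fold change of 0.16 ± 0.12 (SE) did not pass (edgeR's adjusted p = 0.259), and the 95% interval was -0.1 to 0.42. RLE scaling gave 0.29 (edgeR's adjusted p = 0.0397) and library totals 0.79 (edgeR's adjusted p = 6.11e-05), both called, and the GC offset 0.04, so whether miR-25-3p counts as higher depends on the scale. By counts alone miR-25-3p ranked 7th in each neonatal library and between 9th and 11th in adult libraries.

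miR-106b-5p, the arm that names the cluster, is usually taken as the guide strand, although the 3p arm of its hairpin was counted more often in all 8 libraries. It was the only member with a lower mean in neonatal libraries on the TMM scale. Its values were 271, 386, 333 and 574 CPM in neonatal libraries 1 to 4, against 335, 585, 379 and 488 CPM in adult libraries 1 to 4. The groups overlapped widely, with neonatal library 4 and adult library 2 both at the top. The log2 fold change was -0.19 ± 0.24 (SE; edgeR's adjusted p = 0.509; 95% interval -0.71 to 0.33), and it turned to 0.43 with library totals, also without a call (edgeR's adjusted p = 0.102). It was near 0 without neonatal library 1 (-0.015) or adult library 2 (-0.019), and the GC offset gave -0.05.

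The low arms of mir-93 and mir-25 had higher means in neonatal libraries with more spread. miR-25-5p stood at 325, 198, 263 and 167 CPM in neonatal libraries 1 to 4, against 205, 90.9, 187 and 126 CPM in adult libraries 1 to 4, and the groups overlapped. Its log2 fold change of 0.65 ± 0.27 (SE) missed the threshold (edgeR's adjusted p = 0.0516), but passed with the replicate number as a block (0.66, edgeR's adjusted p = 0.00106). The GC offset gave 0.35 (edgeR's adjusted p = 0.173). miR-93-3p, the least counted member with 43 to 131 counts per library, had 61.9, 45.4, 57.0 and 35.0 CPM in neonatal libraries 1 to 4, against 44.7, 30.1, 36.1 and 34.1 CPM in adult libraries 1 to 4. The groups overlapped, and the log2 fold change of 0.46 ± 0.23 (SE) did not pass (edgeR's adjusted p = 0.0935). It was 0.13 with the GC offset. Without neonatal library 4, where both arms were lowest in their group, miR-93-3p and miR-25-5p both passed, at 0.71 and 0.90 (edgeR's adjusted p of 0.0115 and 0.0116), so that 4 of 6 members were higher, against 34.0% of all miRNAs. Without neonatal library 1 neither passed, at 0.38 and 0.50 (edgeR's adjusted p of 0.179 and 0.136). miR-25-5p also passed without neonatal library 2, adult library 1 or adult library 3, and miR-93-3p under no other omission.

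**Figure D2:**
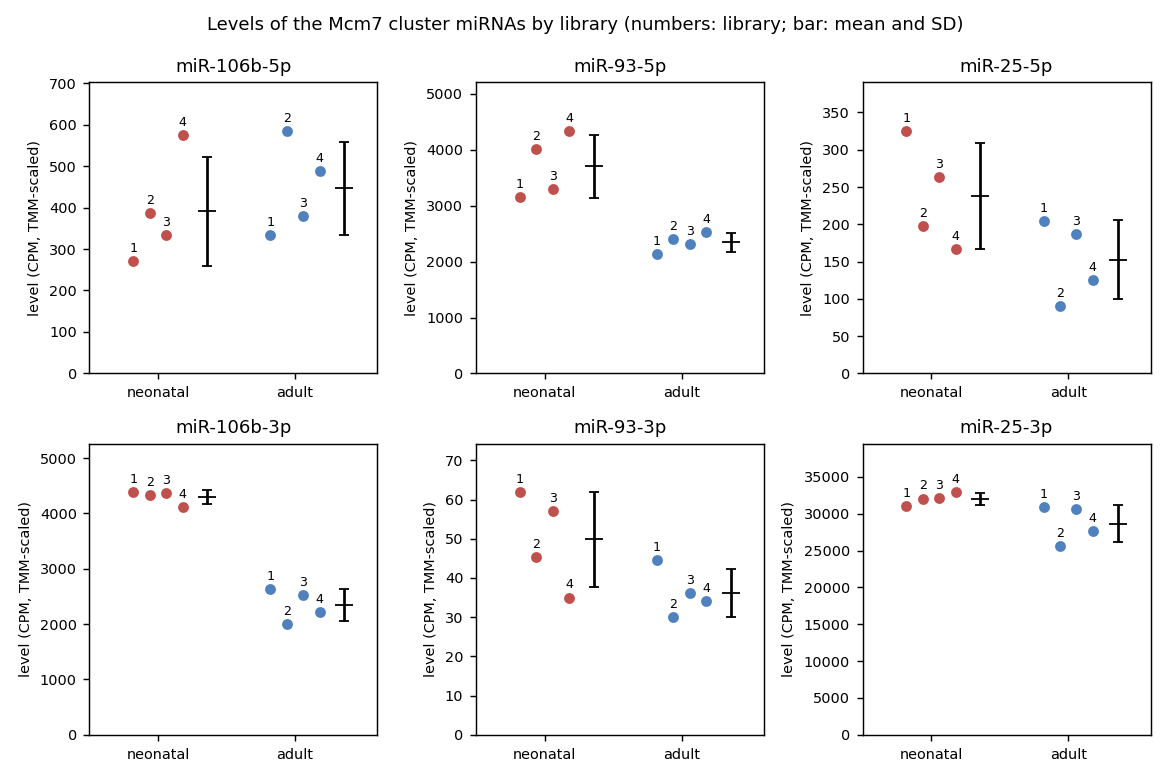
Level of each member (CPM after TMM scaling) in each library, numbered 1 to 4, with the mean and SD of the group beside the points. Neonatal and adult points are apart for miR-106b-3p and miR-93-5p, barely apart for miR-25-3p, and overlap for the other 3.

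**Figure D3:**
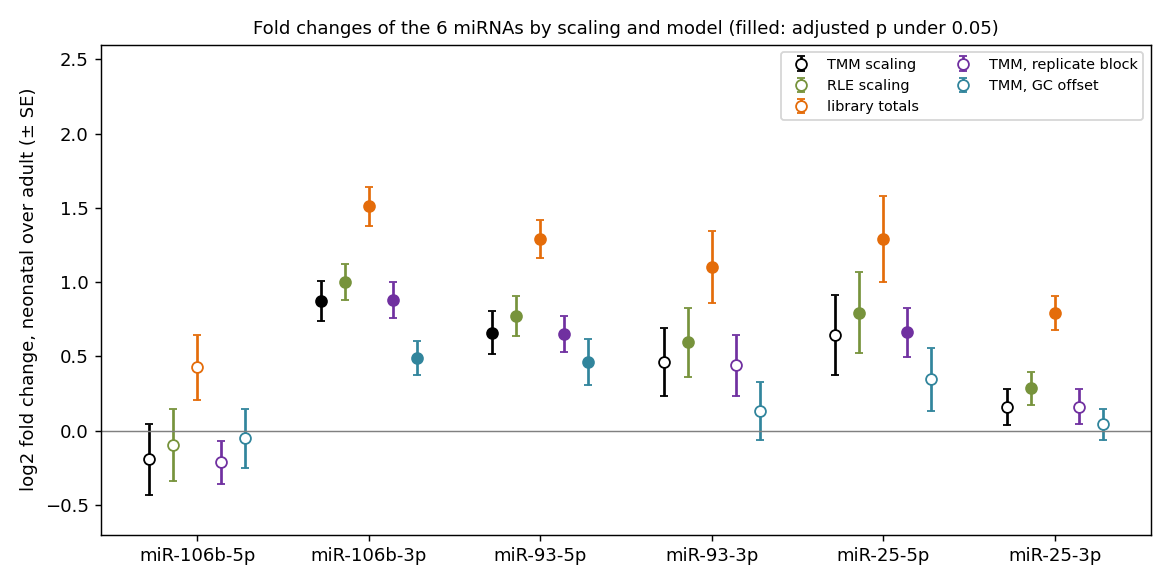
Log2 fold change, neonatal over adult, of each member (bars are SE) under 3 scalings, with the replicate number as a block and with an offset for GC content; filled points have an adjusted p under 0.05. miR-106b-3p and miR-93-5p were called under all 5 settings, and miR-106b-5p, the only member that turns sign, under none.

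The cluster took 5.06% ± 0.152 of all counts in neonatal and 2.73% ± 0.233 in adult libraries (SD, n = 4 each). These shares are on the scale of library totals. With TMM scaling the 6 members summed to 40680 ± 1240 CPM in neonatal libraries, against 33980 ± 2640 CPM in adult ones (SD, n = 4 each), a smaller difference without overlap. Within the cluster miR-25-3p held 78.7% ± 0.675 of the counts in neonatal and 84.3% ± 0.918 in adult libraries, and miR-106b-3p held 10.6% ± 0.604 in neonatal and 6.89% ± 0.321 in adult libraries. For miR-93-5p the share was 9.08% ± 1.14 in neonatal and 6.95% ± 0.944 in adult libraries. Small RNA kits ligate adapters with sequence preferences, so these shares compare a miRNA between the ages, not the amounts of different miRNAs.

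Ratios of counts within a library do not depend on scaling, and they showed whether the arms of a hairpin moved unequally between the ages. Of 123 hairpins with both arms tested, 47.2% had a changed 5p to 3p ratio by limma (adjusted p under 0.05), 28.5% lower and 18.7% higher in neonatal libraries. mir-106b was among those lower. Copies of mir-467a, of mir-466c and of mir-669a carried identical counts and entered as separate hairpins. All copies of mir-467a (-0.62) and mir-466c (-1.04) were called lower, so repeated values raise the share lower. The copies also entered the adjustment and the median over all hairpins. The log2 ratio of miR-106b-5p to miR-106b-3p was -4.01, -3.49, -3.71 and -2.84 in neonatal libraries 1 to 4, against -2.97, -1.78, -2.74 and -2.18 in adult libraries 1 to 4. The 3p arm was in excess in all 8 libraries. Taken from the mean log2 ratio (a geometric mean), it had 11.4 counts per 5p count in neonatal and 5.34 in adult libraries. The groups overlapped because the log2 ratio of neonatal library 4 lay above that of adult library 1. The difference was -1.1 ± 0.32 (SE; limma's adjusted p = 0.0181, n = 4 per group), against a median of -0.22 over all hairpins, and the ratio was lower in the neonatal library of all 4 same-numbered pairs. The call was lost without neonatal library 1 (-0.93, limma's adjusted p = 0.0512) or adult library 4 (-1.02, limma's adjusted p = 0.0516), and with the GC offset (-0.54, limma's adjusted p = 0.054; 0.017 with the offset and the replicate block).

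For mir-93 the 5p arm was in excess, at a log2 ratio of 6.23 ± 0.59 in neonatal and 6.01 ± 0.33 in adult libraries (SD, n = 4 each). The difference of 0.22 ± 0.30 (SE) did not pass (limma's adjusted p = 0.635) and turned to -0.02 without neonatal library 4. mir-25 was dominated by its 3p arm, with a log2 5p to 3p ratio of -7.12 ± 0.46 in neonatal and -7.62 ± 0.41 in adult libraries (SD, n = 4 each). Its difference of 0.51 ± 0.27 (SE) missed the threshold (limma's adjusted p = 0.187). With the replicate block it passed (limma's adjusted p = 0.0157), the ratio being higher in the neonatal library of all 4 same-numbered pairs. The labels do not say that equal numbers are pairs. With the GC offset the difference was 0.30 (limma's adjusted p = 0.322), and the call of the block was lost when both were fitted together (0.30, limma's adjusted p = 0.0895). It was 0.32 without neonatal library 1 and 0.34 without adult library 2. Differences between the 3 hairpins were not tested.

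Levels shifted with the GC content of the miRNA, between the ages and between libraries of one age. Among all tested miRNAs with a sequence, the median log2 fold change was -0.64 in the fifth lowest in GC and 0.31 in the fifth highest. Low-GC miRNAs relative to high-GC ones were lowest in neonatal library 1, at a log2 difference of -0.81, and highest in adult library 2, at 0.97. Neonatal library 4 (-0.07) and adult library 1 (0.31) lay nearest to each other across the ages. miR-106b-5p, the member lowest in GC, was lowest in neonatal library 1 and highest in adult library 2, and miR-25-5p, high in GC, the reverse. The part of GC content in the members' differences was not tested beyond the offset values given here. The offset was fitted to each library's deviation from the mean of all 8 libraries, both ages together. It therefore also removes any age difference that follows GC content. With these libraries such a difference and a technical GC effect cannot be told apart.

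The arms usually taken as guide strands, miR-106b-5p, miR-93-5p and miR-25-3p, were compared in 3 ratios, and with same-seed miRNAs of the miR-17 to miR-92a cluster in 3 more. The log2 ratio of miR-93-5p to miR-106b-5p was 3.54, 3.38, 3.31 and 2.92 in neonatal libraries 1 to 4, against 2.67, 2.04, 2.6 and 2.37 in adult libraries 1 to 4. The groups did not overlap and differed by 0.86 ± 0.19 (SE; two-sided p = 0.0286 by exact permutation, the smallest that 4 against 4 libraries allow). After adjustment over the 6 ratios the p was 0.0571 by the exact permutation test, and none of the 6 passed. miR-25-3p to miR-93-5p was 3.12 ± 0.19 in neonatal and 3.61 ± 0.21 in adult libraries (SD, n = 4 each), again without overlap, a difference of -0.49 ± 0.14 (SE) with the same raw and adjusted exact permutation p. Between miR-25-3p and miR-106b-5p the log2 ratio differed by 0.38 ± 0.32 (SE) and the groups overlapped (exact permutation p = 0.229, raw and adjusted). The GC offset moved this difference to 0.0904 and that of miR-93-5p to miR-106b-5p to 0.508. It moved that of miR-25-3p to miR-93-5p to -0.417 (exact permutation adjusted p = 0.129). Without adult library 2 the difference between miR-25-3p and miR-106b-5p was 0.184, without neonatal library 1 it was 0.237, and without neonatal library 4 it was 0.569.

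Set against miR-17-5p, the namesake of the paralog cluster, miR-93-5p kept nearly the same ratio in every library. It was 0.96, 1.01, 0.98 and 0.92 on the log2 scale in neonatal libraries 1 to 4, against 0.89, 0.85, 0.86 and 0.93 in adult libraries 1 to 4. The groups overlapped, and the difference was 0.09 ± 0.02 (SE; exact permutation p = 0.0571, adjusted p = 0.0686). miR-106b-5p to miR-17-5p was -2.32 ± 0.24 in neonatal and -1.54 ± 0.28 in adult libraries (SD, n = 4 each), without overlap (difference -0.78 ± 0.18 SE; exact permutation p = 0.0286, adjusted p = 0.0571). miR-25-3p to miR-92a-3p was -1.41 ± 0.34 in neonatal and -1.97 ± 0.24 in adult libraries (SD, n = 4 each), with overlap (difference 0.56 ± 0.21 SE; exact permutation p = 0.0571, adjusted p = 0.0686). Within same-numbered pairs, 5 of the 6 ratios differed in the same direction in all 4 pairs, those of miR-25-3p to miR-106b-5p and to miR-92a-3p included, and miR-93-5p to miR-17-5p in 3 of 4. An exact permutation test that flips signs within 4 pairs cannot go below p = 0.125, the value of those 5 ratios.

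**Figure D4:**
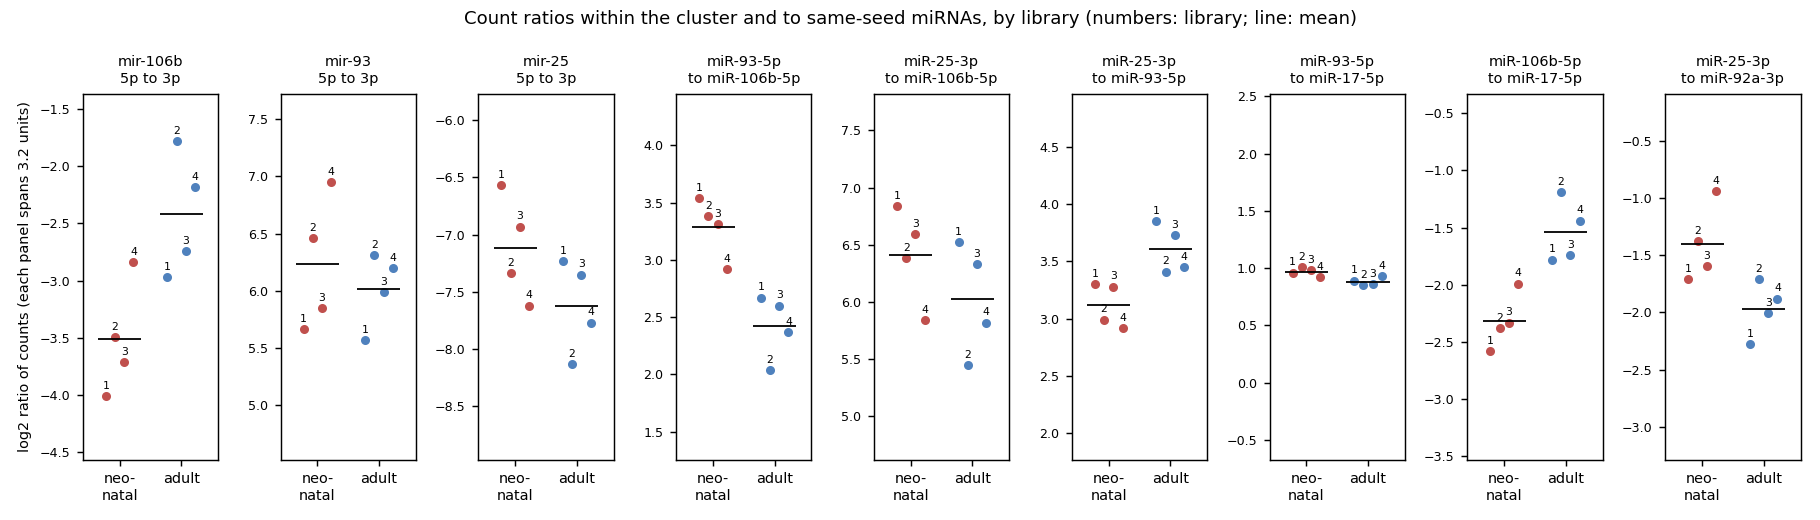
Log2 ratios of counts in each library, numbered 1 to 4, with group means as lines: the 5p to 3p ratio of the 3 hairpins, then the 6 ratios between guide strands. Every panel spans the same number of log2 units; miR-93-5p to miR-17-5p, at 0.85 to 1.01, was the flattest, and neonatal and adult points are apart for miR-93-5p to miR-106b-5p, miR-25-3p to miR-93-5p and miR-106b-5p to miR-17-5p.

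Cluster members made up part of each seed family's counts, given here without a test. Of counts with the seed AAAGUGC, miR-93-5p held 32.6% ± 2.24 in neonatal and 26.3% ± 2.0 in adult libraries, and miR-106b-5p held 3.35% ± 0.395 in neonatal and 4.93% ± 0.676 in adult libraries (SD, n = 4 each). Together the cluster gave 36.0% ± 1.88 of this family in neonatal and 31.2% ± 1.53 in adult libraries, while miR-20a-5p gave 33.0% ± 3.32 in neonatal and 40.8% ± 2.62 in adult libraries. The whole family was 1.42% ± 0.234 of all counts in neonatal and 0.721% ± 0.0942 in adult libraries. This share is on the scale of library totals, which shifted log2 fold changes upward by 0.625 on average from the TMM scale. Of counts with the seed AUUGCAC, miR-25-3p held 27.3% ± 4.73 in neonatal and 20.3% ± 2.62 in adult libraries, and miR-92a-3p held 71.8% ± 4.99 in neonatal and 79.1% ± 2.79 in adult libraries. The whole AUUGCAC family was 14.9% ± 2.76 of all counts in neonatal and 11.6% ± 2.54 in adult libraries, also on library totals. These shares carry the kit's ligation preferences.

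**Figure D5:**
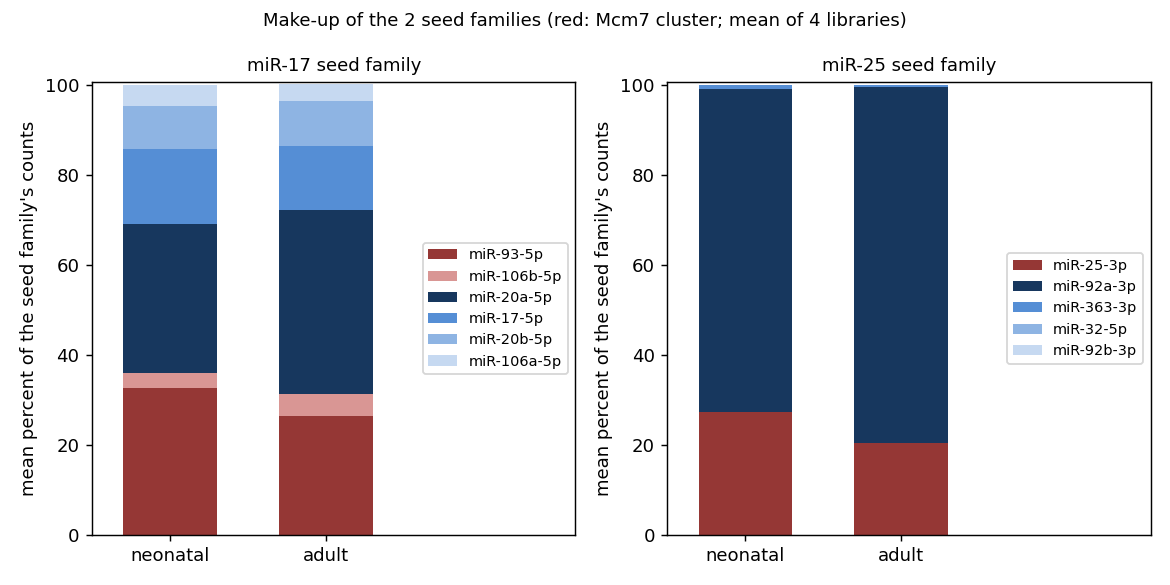
Mean percent of the counts of each seed family (4 libraries per age) that came from each miRNA, with Mcm7 cluster members in red at the base of the bars. The red part is 36.0% in neonatal and 31.2% in adult libraries for the AAAGUGC seed (left), and 27.3% in neonatal and 20.3% in adult libraries for the AUUGCAC seed (right).

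In the paralog clusters, 16 of 22 listed arms were tested, and 8 rose and 3 fell in neonatal libraries (median log2 fold change 0.42), against 29.1% higher and 34.1% lower among all miRNAs tested. With RLE scaling 2 fell (31.5% of all miRNAs were then lower), and with library totals 10 rose and 1 fell (49.6% higher and 18.1% lower). Without neonatal library 1 (31.0% of all miRNAs lower) or without adult library 4 (30.7%) also 1 fell. In the miR-106a to miR-363 cluster on chromosome X, 5 of 9 tested arms rose and 1 fell, miR-19b-3p and miR-92a-3p being made from both clusters and counted in each, with miR-363-5p at the smallest p (518 ± 58.1 CPM in neonatal libraries, against 162 ± 26.2 CPM in adult ones; log2 fold change 1.68 ± 0.16, edgeR's adjusted p = 2.5e-06). In the miR-17 to miR-92a cluster 3 of 9 rose and 3 fell, near the background in both directions, among them miR-19b-3p, with the smallest p there (-1.22 ± 0.21, edgeR's adjusted p = 0.000317). miR-17-5p rose by 0.58 ± 0.15 (edgeR's adjusted p = 0.00433), near the value of miR-93-5p. miR-92a-3p, the most abundant paralog, held 86190 ± 17300 CPM in neonatal libraries, against 114500 ± 28600 CPM in adult ones, and its change of -0.41 ± 0.20 did not pass (edgeR's adjusted p = 0.0852), but passed with the block (edgeR's adjusted p = 0.00575) and, at -0.7, under the GC offset (edgeR's adjusted p = 0.00162).

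The miRNAs with the most similar profile over the 8 libraries were different ones for each guide strand. Among 158 other miRNAs with a mean of at least 100 CPM, miR-93-5p was most like miR-17-5p (Pearson r = 0.993 of log2 CPM over 8 libraries), miR-103-3p (0.986) and miR-106a-5p (0.982). The closest to miR-106b-5p were miR-340-5p (0.955), miR-872-5p (0.934) and miR-192-5p (0.931). For miR-25-3p they were miR-296-5p (0.948), miR-181a-1-3p (0.942) and miR-674-3p (0.889). These values describe 8 libraries that fall into the 2 ages and share depth and GC differences, and no test was made of them.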

How the data were processed

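Estimated counts, not normalized, were deposited for every library, a row for each mature miRNA of each hairpin; 71.4% of non-zero values were whole within 0.001. The build is mm10, per the submitters' processing notes. Neither aligner, counter nor miRNA annotation is given in the sources used here. Counts were summed over hairpins and rounded. edgeR 4.0.16 (R 4.3.3) kept 375 miRNAs (filterByExpr, minimum count 10, minimum total 15) and fitted age group alone with TMM scaling and robust quasi-likelihood dispersions (biological coefficient of variation 21.4%). P-values were adjusted over all 375 by the Benjamini-Hochberg method, and SEs were derived from the fold change and F. Arm ratios, log2((5p + 0.5)/(3p + 0.5)), were fitted with limma 3.58.1 with an abundance trend, and ratios between guide strands were tested by exact permutation over 70 divisions of the libraries (SciPy 1.17.1). Both fits were tried on simulated counts drawn without GC or replicate structure. For the arm ratios only the error of the estimate was checked there, not the rate of false calls. GC content came from RefSeq mature sequences, found for 314 of 375 (83.7%), and the offset was a loess curve per library. No 2 libraries of a group agreed within sampling noise (chi-square over degrees of freedom, 19.1 to 450). Same-numbered libraries deviated together (r = 0.256 to 0.415 in 4 pairs), but so did some unlike numbers. Neonatal library 4 reached 0.482 with adult library 2, and neonatal library 3 reached 0.397 with adult library 1. By chi-square, adult libraries 1 and 3 (47.8) and 2 and 4 (63.3) were the closest adult ones. This check does not establish the numbers as pairs, so block fits and same-numbered pairs were alternatives only. DESeq2 1.42.0 and limma-voom were alternatives. Named miRNAs were the members, in each paralog cluster the most abundant and that of smallest p, the miRNAs of the ratios, and the 3 most like each guide strand. The members, lists and tests were chosen with earlier results of these data known. Libraries were made with the NEBNext small RNA kit, per the labels, which name no molecular identifiers, so the limit that a count of 0 allows (3 counts, 1.15 to 2.34 CPM) covers counting error only.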

Additional observations from a re-analysis of the deposited data

How the results depend on the processing

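The calls of miR-106b-3p and miR-93-5p held under all alternatives run, the omission of each library included. With RLE scaling miR-93-3p (0.60), miR-25-3p (0.29) and miR-25-5p (0.80) passed as well, likewise with DESeq2 (0.60, 0.29 and 0.80) and library totals (1.1, 0.79 and 1.29), so that 5 members were higher under each of these 3. Library totals also turned miR-106b-5p to 0.43 and gave 186 higher and 68 lower miRNAs in all, in place of 109 and 128, and 1 lower paralog arm in place of 3. miR-25-5p further passed with limma-voom (0.67), without a filter on low counts (0.77), with at least 10 CPM in 4 libraries (0.73), with the replicate block (0.66) and with the GC offset and block together (0.34). The block also brought in the mir-25 arm ratio (0.51), a call lost with the GC offset and block together (0.30), and changed no other call of a member or of its arm ratios. With the GC offset, chosen for the ratios after seeing the data, the mir-106b arm ratio went to -0.54 without a call, and miR-93-5p to miR-17-5p turned to -0.0536. It also moved the mir-25 arm difference to 0.30, miR-93-5p to miR-106b-5p to 0.508 and miR-25-3p to miR-106b-5p to 0.0904. For miR-25-3p to miR-93-5p the offset gave -0.417, for miR-106b-5p to miR-17-5p -0.561 and for miR-25-3p to miR-92a-3p 0.747. Without 1 library at a time, log2 fold changes ran from 0.38 to 0.71 for miR-93-3p and from 0.50 to 0.90 for miR-25-5p, the number of higher members from 2 to 4, of lower paralog arms from 1 to 3, the mir-106b arm difference from -1.32 to -0.88, that of mir-93 from -0.0223 to 0.40 and of mir-25 from 0.32 to 0.68. In the same fits 26.7% to 34.0% of all miRNAs tested were higher and 30.7% to 33.8% lower. Of values not called, miR-106b-5p ran from -0.37 to -0.015, miR-25-3p from 0.15 to 0.25 and miR-25-3p to miR-106b-5p from 0.18 to 0.57. Ratios between guide strands have too few libraries left for an exact test at 0.05 when 1 is omitted or when flipped within 4 pairs, and were compared as values; all kept their sign there. miR-93-3p rests on only 43 to 131 counts per library. Other causes of these shifts were not tested.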
